A study of Capra hircus with 6 samples.

Results

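Cholesterol synthesis genes were followed in the hypothalamus of female Anhuai goats around puberty. The set was named by pathway and comprised 8 genes, HMGCS1, IDI1, MVD, FDFT1, SQLE, LSS, DHCR7 and SREBF2, of which 7 were found among the 20225 genes of the mRNA table by their NCBI goat symbol. IDI1, the isopentenyl-diphosphate isomerase, had no entry under that symbol in the gene name table used and is given no value here. The level of a gene was the sum of the FPKM of its transcripts in a library, where FPKM is the number of fragments scaled by transcript length and by the mapped fragments of the library.

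Each stage was represented by 3 goats with 1 library per goat. Pubertal goats were 4.5 to 5 months old and were killed in the late follicular phase, after estrus had been detected by male goats and by the appearance of the vulva. Prepubertal goats were 2.5 to 3 months old. All 6 animals were kept alike and no treatment was named for either stage. Age, body size and ovarian state differed together with stage, so that their parts cannot be told apart. RNA came from hypothalamic tissue, whose dissection borders are not given in the sources used here, and was sequenced after removal of ribosomal RNA.

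Cholesterol is built from acetyl-CoA through mevalonate, isoprenoid units, squalene and lanosterol. The brain makes its own cholesterol because lipoproteins do not cross the blood-brain barrier. Oligodendrocytes use it for myelin, and astrocytes export it to neurons on APOE particles. SREBP-2, the protein of SREBF2, is held in the endoplasmic reticulum with SCAP and INSIG when sterols are high, is cut in the Golgi when sterols are low, and then activates most genes of the pathway, including its own.

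The 7 genes were well expressed, and their total varied little between libraries. The summed level of the 7 genes was 599.6, 595.0 and 593 FPKM in pubertal replicates 1, 2 and 3 and 577, 608 and 615 FPKM in prepubertal replicates 1, 2 and 3, a coefficient of variation of 2.20% over the 6 libraries. The means were 596 ± 3.22 and 600.0 ± 20.3 FPKM (SD, n = 3). The stages overlapped in this total. The wider sum over all 19 matched synthesis enzymes did not overlap. It came to 1386, 1363 and 1308 FPKM in the pubertal libraries, numbered 1 to 3, and to 1387, 1399 and 1412 FPKM in the prepubertal ones, with means of 1352 ± 40.4 and 1399.7 ± 12.5 FPKM (SD, n = 3). The nearest sums, those of replicate 1 of either stage, were almost equal, and no test was made of the sums. Single genes spread more than the total, from 3.43% for FDFT1 to 15.8% for SREBF2. On the log2(FPKM + 1) scale the median SD of the 7 genes over the libraries was 0.118, against 0.135 for the 8116 genes with a mean of at least 10 FPKM. It was 0.148 for the 13 matched synthesis enzymes outside the 7 genes. By stage, the median SD of the 7 genes was 0.169 in pubertal and 0.0612 in prepubertal goats. The 8116 genes had 0.151 and 0.0922, so the 7 genes were steadier only in prepubertal goats.

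Levels differed widely along the pathway. HMGCS1, which condenses acetyl-CoA with acetoacetyl-CoA to HMG-CoA, was the highest of the 7 genes with a mean of 299 FPKM over the 6 libraries. FDFT1, the squalene synthase, followed with 125 FPKM and SQLE, the squalene epoxidase, with 86.3 FPKM. MVD, the last enzyme of the mevalonate segment, had 29.5 FPKM, SREBF2 25.2 FPKM, DHCR7, the reductase of the last step, 20.2 FPKM, and LSS, which closes squalene epoxide to lanosterol, 12.6 FPKM. The 6 neighbouring pairs of this order were then compared within library. The order came from the same 6 libraries, so the p-values show only that a ratio kept its direction between libraries. An error in the level of a gene that all libraries share is not covered by them. HMGCS1 was 2.40 times FDFT1, FDFT1 was 1.45 times SQLE, SQLE was 2.93 times MVD, SREBF2 was 1.24 times DHCR7 and DHCR7 was 1.60 times LSS, each in 6 of 6 libraries (p = 0.03125 by exact permutation of the signs of the log2 ratios, two-sided, which is the lower limit for 6 libraries, adjusted p = 0.0375 over the 6 pairs). With only the highest transcript of each gene counted, the log2 ratio of HMGCS1 to FDFT1 was 0.50 in place of 1.26. MVD and SREBF2 were the neighbours that did not differ beyond their spread, with MVD higher in 5 of 6 libraries and a mean log2 ratio of 0.24 ± 0.23 (SD, n = 6, exact sign-flip p = 0.0938, adjusted p = 0.0938). SREBF2 was above MVD in pubertal replicate 3, where SREBF2 was at its highest.

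**Figure D1:**
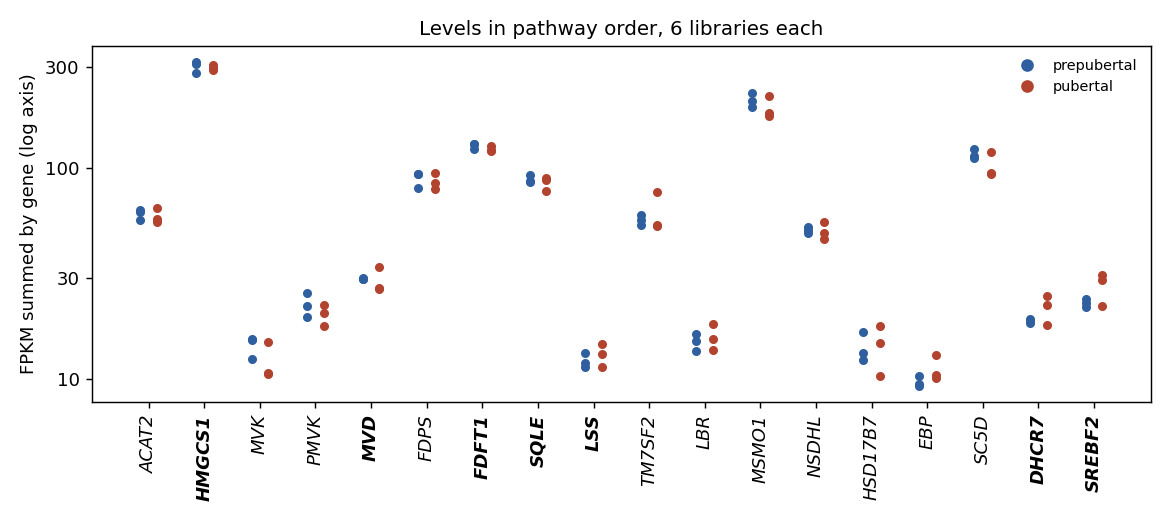
FPKM summed by gene (log axis) of the synthesis enzymes reported here in pathway order and of SREBF2, with 1 point per library, prepubertal on the left and pubertal on the right of each gene, and the genes described here in bold. HMGCS1 and MSMO1 stand highest, with means of 299 and 199.8 FPKM, and the stages lie over each other for every gene shown.

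In the mevalonate segment no stage difference was seen beyond the spread between goats. HMGCS1 measured 306, 289 and 297 FPKM in pubertal replicates 1, 2 and 3, against 280.4, 308 and 315 FPKM in the prepubertal ones. The pubertal values lay inside the prepubertal range. Its log2 fold change, pubertal minus prepubertal on log2(FPKM + 1), was -0.02 with a standard error of 0.09 (limma, adjusted p = 0.994), and the 95% interval ran from -0.23 to 0.19. MVD, which decarboxylates mevalonate diphosphate to isopentenyl diphosphate, measured 26.7, 33.7 and 27.0 FPKM in pubertal replicates 1, 2 and 3, against 29.9, 29.7 and 29.8 FPKM in the prepubertal ones. The prepubertal goats were nearly identical, with an SD of 0.117 FPKM, and the pubertal goats lay on either side of them, with an SD of 3.97 FPKM. The log2 fold change of MVD was -0.04 (95% interval -0.28 to 0.21, limma adjusted p = 0.988).

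HMGCS1 was the only one of the 7 genes with more than 1 transcript in the table, with 2. The transcript of 3480 nt, XM_005694739.2, held between 56.9% and 63.0% of the gene's FPKM in pubertal and between 56.9% and 62.8% in prepubertal libraries. It was at 193 FPKM in pubertal replicate 1 and 193 FPKM in prepubertal replicate 2, its highest values. The transcript of 2143 nt, XM_005694740.2, was lowest in the same libraries, at 113 and 115 FPKM, and highest in prepubertal replicate 3, at 136 FPKM. Neither passed the test, with log2 fold changes of -0.00 (95% interval -0.25 to 0.24) and -0.04 (95% interval -0.26 to 0.18) and limma adjusted p-values of 0.999 and 0.988 over the 23821 transcripts tested. Fragments shared by both transcripts were divided between them by the authors' software, so that the sum is the safer measure.

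The squalene and lanosterol enzymes also overlapped between the stages. FDFT1, which joins farnesyl diphosphate units to squalene and commits the pathway to sterols, measured 127, 120.1 and 121 FPKM in pubertal replicates 1, 2 and 3, against 122, 129.7 and 129.6 FPKM in the prepubertal ones. It was the steadiest of the 7 genes, and its log2 fold change was -0.05 (95% interval -0.23 to 0.13, limma adjusted p = 0.969). SQLE, which catalyses an oxygen-dependent, rate-limiting step, measured 89.2, 87.2 and 77.7 FPKM in pubertal replicates 1, 2 and 3, against 92.5, 86.0 and 85.2 FPKM in the prepubertal ones. Its lowest library was pubertal replicate 3 and its highest prepubertal replicate 1, while pubertal replicates 1 and 2 lay above prepubertal replicates 2 and 3. The log2 fold change of SQLE was -0.05 (95% interval -0.26 to 0.15, limma adjusted p = 0.970). LSS measured 11.3, 13.1 and 14.6 FPKM in pubertal replicates 1, 2 and 3, against 11.4, 13.3 and 11.9 FPKM in the prepubertal ones, highest in pubertal replicate 3 and lowest in the first replicate of either stage. Its log2 fold change was 0.08 (95% interval -0.19 to 0.35, limma adjusted p = 0.969).

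DHCR7 and SREBF2 had the largest differences of the 7 genes, and neither passed the test. DHCR7, which reduces 7-dehydrocholesterol to cholesterol, measured 17.95, 22.4 and 24.7 FPKM in pubertal replicates 1, 2 and 3, against 18.3, 18.8 and 19.3 FPKM in the prepubertal ones. SREBF2, the master transcription factor of the pathway, measured 22.1, 29.5 and 31.0 FPKM in pubertal replicates 1, 2 and 3, against 21.9, 22.8 and 23.9 FPKM in the prepubertal ones. For both genes pubertal replicates 2 and 3 lay above every prepubertal goat, while pubertal replicate 1 lay among the prepubertal goats or below them. DHCR7 averaged 21.7 ± 3.43 FPKM over the pubertal and 18.8 ± 0.497 FPKM over the prepubertal libraries, and SREBF2 27.5 ± 4.77 and 22.9 ± 1.01 FPKM (SD, n = 3). The log2 fold change was 0.18 ± 0.12 (SE) for DHCR7 (95% interval -0.10 to 0.46, limma unadjusted p = 0.168, adjusted p = 0.962). It was 0.24 ± 0.13 (SE) for SREBF2 (95% interval -0.06 to 0.54, limma unadjusted p = 0.102, adjusted p = 0.962). Unadjusted p-values under 0.05 were reached only when pubertal replicate 1 was left out. Without it the log2 fold change was 0.39 for SREBF2 (limma unadjusted p = 0.00212, adjusted p = 0.288) and 0.31 for DHCR7 (limma unadjusted p = 0.00869, adjusted p = 0.292), in a fit in which 13.5% of all genes had an unadjusted p-value under 0.05. Without pubertal replicate 3 the log2 fold change was 0.15 for SREBF2 and 0.09 for DHCR7.

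**Figure D2:**
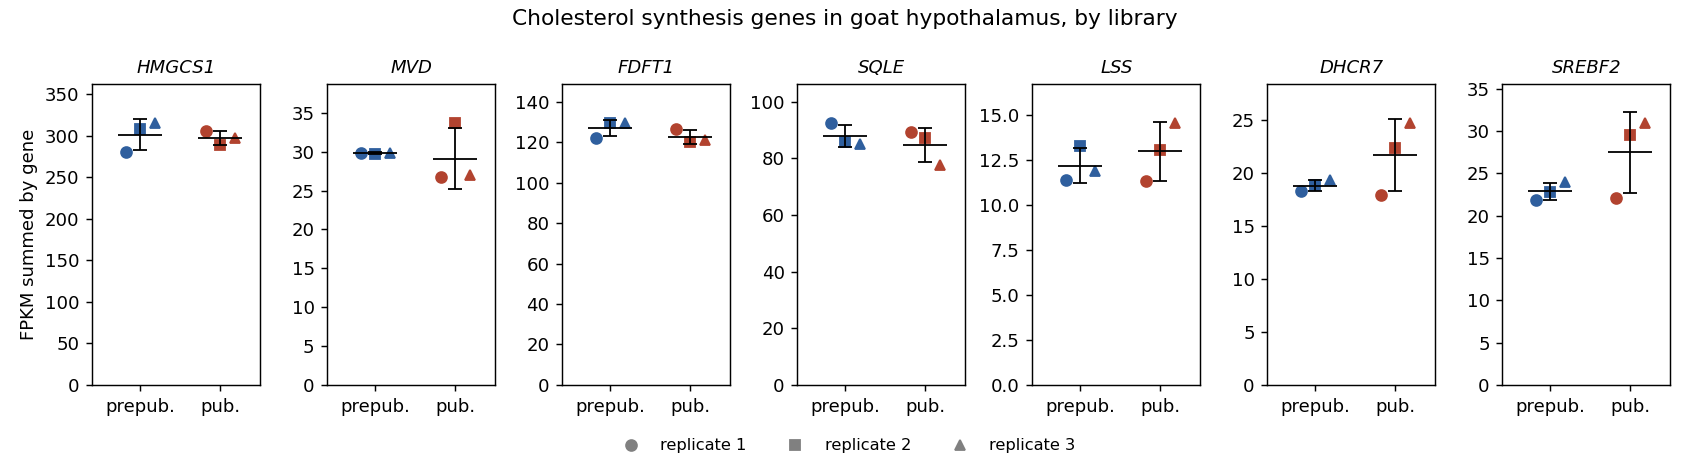
FPKM summed by gene in each library for the 7 genes, prepubertal on the left and pubertal on the right of each panel, with the replicate number as symbol and the mean ± SD of 3 goats as bars. The stages overlap for every gene, and pubertal replicates 2 and 3 stand above the prepubertal goats for DHCR7 (22.4 and 24.7 FPKM) and SREBF2 (29.5 and 31.0 FPKM).

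Over all 16397 genes with a mean of at least 0.1 FPKM, limma gave 0 genes with an adjusted p-value under 0.05 and 846 (5.16%) at an unadjusted p-value under 0.05. Of these, 575 were higher in pubertal goats (3.51% of the genes tested) and 271 lower (1.65%). After quantile normalization 462 of 839 genes were higher, or 55.1% of those called against 68.0%. Without pubertal replicate 1 the balance turned, with 984 of 2223 called genes (44.3%) higher. Of the 7 genes, 0 had an unadjusted p-value under 0.05, and 0 had stages that did not overlap, which occurred in 9.75% of all genes. The median log2 fold change was -0.02 for the 7 genes and -0.00 for all genes tested. Of all genes tested, 8160 had a positive log2 fold change and 8237 did not. Genes of a list were measured in the same 6 libraries, so the counts of signs per list given below are not counts of independent results. The precision was good enough to bound the change, since the 95% intervals of 6 of the 7 genes lay between -0.5 and 0.5, as did those of 73.7% of all genes. The exception was SREBF2, with an upper bound of 0.54. In folds of FPKM + 1, the intervals ran from 0.855 to 1.14 for HMGCS1, from 0.851 to 1.09 for FDFT1, from 0.837 to 1.11 for SQLE and from 0.959 to 1.46 for SREBF2. The p-values rest on the spread between 3 goats of each stage, pooled over both stages and drawn by limma towards that of genes of similar level. In bulk tissue, fewer cells of a type and less RNA per cell cannot be told apart.

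The remaining enzymes of the pathway held 0 calls too. Of 15 further synthesis enzymes named, 13 were matched and tested, and 0 had an unadjusted p-value under 0.05 or stages that did not overlap. Their median log2 fold change was -0.04, with 4 positive and 9 negative values between -0.25 and 0.18, and it was 0.0052 after quantile normalization. MSMO1, a sterol demethylase and the most abundant of the 13, had a mean of 199.8 FPKM and a log2 fold change of -0.13 (95% interval -0.39 to 0.14). FDPS, which makes farnesyl diphosphate, had a mean of 87.4 FPKM and a log2 fold change of -0.05 (95% interval -0.28 to 0.19). MVK, the mevalonate kinase, had the lowest estimate, -0.25 (95% interval -0.60 to 0.10), and was the single gene of the 13 whose interval passed 0.5 in size. CYP51A1, the lanosterol demethylase, and ERG28 had no entry under those symbols.

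**Figure D3:**
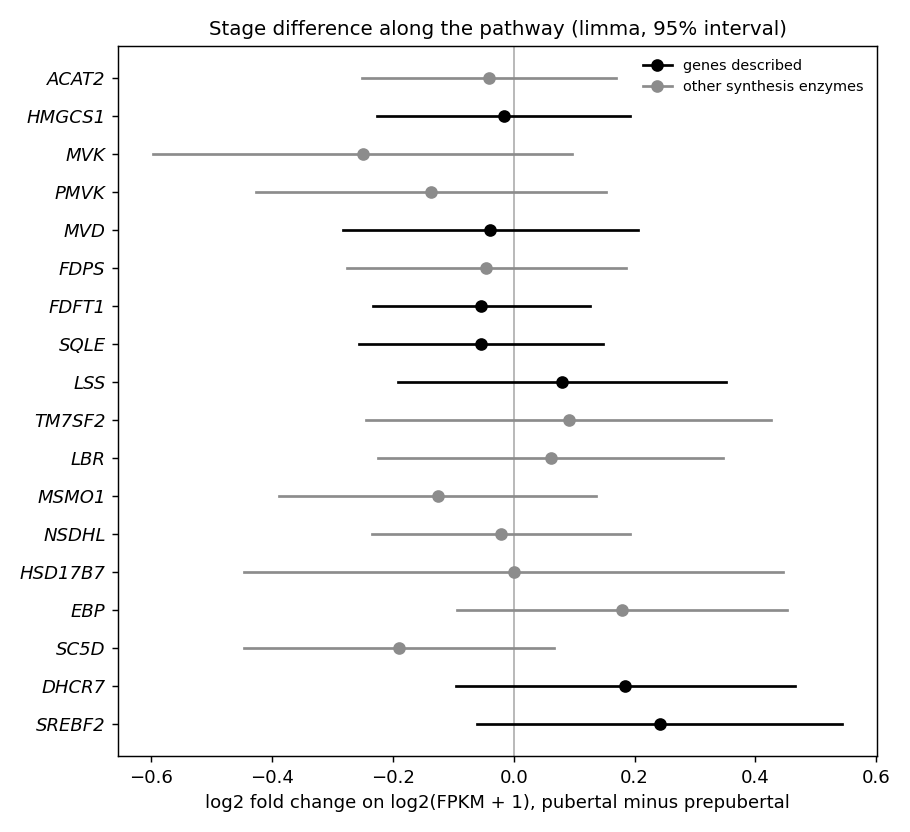
Log2 fold change on log2(FPKM + 1), pubertal minus prepubertal, of the synthesis enzymes reported here in pathway order and of SREBF2, with the 95% interval from limma as bars and the genes described here in black. Every interval includes 0, and the estimates run from -0.25 for MVK to 0.24 for SREBF2.

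Regulators of SREBP processing and sterol uptake were compared next, since they set how much SREBP-2 is active. Of 13 genes named, 12 were tested and 0 had an unadjusted p-value under 0.05, with 10 positive and 2 negative log2 fold changes and a median of 0.05. SCAP, the escort of SREBP, had a log2 fold change of 0.01 and INSIG1, its sterol-dependent anchor, of 0.05. SREBF1, whose protein favours fatty acid synthesis, measured 8.78, 13.4 and 13.8 FPKM in pubertal replicates 1, 2 and 3, against 10.3, 9.79 and 9.69 FPKM in the prepubertal ones. As for SREBF2 and DHCR7, pubertal replicates 2 and 3 were the highest libraries for SREBF1, and pubertal replicate 1 lay below the prepubertal range. Its log2 fold change was 0.23 (95% interval -0.15 to 0.61, limma adjusted p = 0.962). Without pubertal replicate 1, SREBF1 had a log2 fold change of 0.42 (limma unadjusted p = 0.00258, adjusted p = 0.288).

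Among genes of sterol export and turnover, 11 of 14 named were tested and 1 had an unadjusted p-value under 0.05. LRP1, a receptor that takes up APOE particles, measured 34.9, 35.1 and 51.7 FPKM in pubertal replicates 1, 2 and 3, against 28.6, 31.0 and 31.4 FPKM in the prepubertal ones. All pubertal goats lay above the prepubertal goats, by a log2 fold change of 0.39 (limma unadjusted p = 0.0346, adjusted p = 0.928), and the unadjusted call was lost without pubertal replicate 3 or without any of the prepubertal replicates. ABCG1, a sterol exporter, measured 8.94, 7.93 and 7.93 FPKM in pubertal replicates 1, 2 and 3, against 7.04, 7.02 and 6.84 FPKM in the prepubertal ones, and ABCG4, its neuronal relative, 11.99, 12.9 and 9.61 FPKM against 14.4, 13.3 and 13.9 FPKM. Neither gene overlapped between the stages, ABCG1 being higher and ABCG4 lower in pubertal goats, with log2 fold changes of 0.22 and -0.26 and limma unadjusted p-values of 0.0645 and 0.0615. Such non-overlap was found for 2 genes higher and 1 lower of the 11, against 5.91% and 3.84% of all genes. APOE, the carrier of brain cholesterol, was the most abundant gene of the list with 1791 FPKM, ranging from 1487 to 2224 FPKM, and its log2 fold change was -0.04 (95% interval -0.46 to 0.39).

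The branches that share precursors with cholesterol held 0 calls as well. Of the isoprenoid branch genes, 9 of 10 named were tested, 0 had an unadjusted p-value under 0.05, and 8 of 9 had a negative log2 fold change, with a median of -0.08. FNTA, a subunit of the protein prenyl transferases, was the most abundant with 98.5 FPKM (log2 fold change -0.16, 95% interval -0.46 to 0.13). Of 10 fatty acid synthesis genes, 0 had an unadjusted p-value under 0.05, and the median log2 fold change was -0.03, or 0.0039 after quantile normalization. FADS2, a fatty acid desaturase, was the most abundant with 100.2 FPKM (log2 fold change -0.05, 95% interval -0.28 to 0.18).

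Covariation within the pathway was examined over the 6 libraries for the 21 pairs of the 7 genes. Pearson r of log2(FPKM + 1) was above 0 in 10 of 21 pairs and had a median of -0.18, against -0.00 over all pairs of the genes tested and 0.09 over all pairs of genes with a mean of at least 10 FPKM. The 19 synthesis enzymes together had a median r of 0.03 over 171 pairs. With the mean of each stage subtracted, the median of the 21 pairs was -0.12. The sign of this median depended on scaling, since it was 0.52 after quantile normalization, which shifted HMGCS1 by -0.08 and -0.10 on the log2 scale in the first pubertal and prepubertal replicates and by 0.08 and 0.09 in pubertal replicates 2 and 3, shifts larger than the gene's own SD of 0.06.

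An r of at least 0.8 was found among LSS, DHCR7 and SREBF2 and for HMGCS1 with FDFT1, and one of -0.8 or less for SQLE with LSS and with DHCR7, none of which passed the adjusted threshold. DHCR7 and SREBF2 had a Pearson r of 0.99 (exact permutation p = 0.00278 over all 720 pairings, adjusted p = 0.0583 over the 21 pairs) and ranks gave a rho of 0.94 (Spearman, exact permutation p = 0.0167, adjusted p = 0.308). Pubertal replicates 2 and 3 lay apart from the other libraries for both genes, and without them r was 0.93 over 4 libraries. With stage means subtracted r was 0.98, and over the alternative scalings and with each library left out it ran from 0.985 to 0.996. Among 14080 genes with a mean of at least 1 FPKM, DHCR7 ranked 12 by its r with SREBF2 and was the nearest of the pathway genes listed. Over those pathway genes r with SREBF2 ran from 0.99 for DHCR7 down to -0.97 for SC5D, another synthesis enzyme. SREBF2 thus did not rise and fall with the pathway as a whole. LSS gave r = 0.86 with DHCR7 (exact permutation p = 0.0222, adjusted p = 0.156, rho 0.83 with exact permutation p = 0.0583) and r = 0.81 with SREBF2 (exact permutation p = 0.0486, adjusted p = 0.204, rho 0.77 with exact permutation p = 0.103). Without pubertal replicates 1 and 3 these were 0.55 and 0.52 over 4 libraries.

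SQLE gave r = -0.85 with LSS (exact permutation p = 0.0222, adjusted p = 0.156, rho -0.77 with exact permutation p = 0.103) and r = -0.80 with DHCR7 (exact permutation p = 0.0486, adjusted p = 0.204, rho -0.77 with exact permutation p = 0.103). These rested on pubertal replicate 3 and prepubertal replicate 1, without which r was -0.47 and -0.20 over 4 libraries, and after quantile normalization they were -0.15 and 0.02. HMGCS1 and FDFT1 gave r = 0.82 (exact permutation p = 0.0597, adjusted p = 0.208, rho 0.77 with exact permutation p = 0.103), 0.92 with stage means subtracted and 0.93 without prepubertal replicates 1 and 3. MVD had an r between -0.35 and 0.33 with the other 6 genes. Without pubertal replicates 1 and 2, the r of MVD was -0.99 with DHCR7 and 0.88 with SQLE over 4 libraries. An r over 4 libraries can thus lie far from that over 6. Of the 21 pairs, 5 had an exact permutation p under 0.05 for Pearson r and 1 for Spearman rho, and 0 had an adjusted p under 0.05 by either measure. An r of at least 0.8 was found in 19.0% of the 21 pairs and in 4.36% of all gene pairs, and an r of -0.8 or less in 9.52% and 3.93%. Among genes with a mean of at least 10 FPKM these shares of pairs were 6.97% and 3.73%. Over the 171 pairs of the 19 synthesis enzymes they were 5.26% and 4.09%, so the larger shares of the 21 pairs did not extend to the wider pathway. The pairs share genes and libraries and are not independent.

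**Figure D4:**
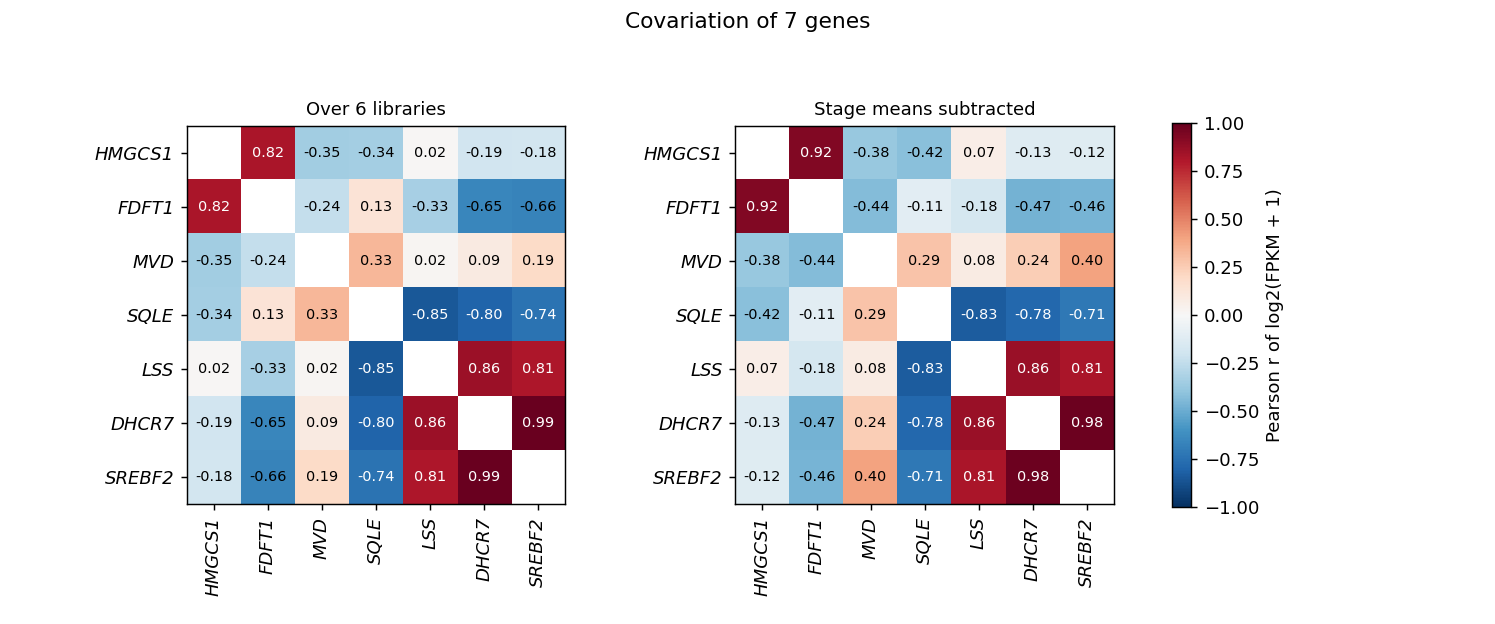
Pearson r of log2(FPKM + 1) for each pair of the 7 genes over 6 libraries (left) and after the mean of each stage was subtracted (right), on a colour scale from -1 to 1. LSS, DHCR7 and SREBF2 form a positive block (0.81 to 0.99 on the left), SQLE is negative with those genes, and HMGCS1 pairs with FDFT1 (0.82).

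The mean profile of the 7 genes was taken from their standardized log2 values. Against the mean of the other 6 genes, so that no gene was set against itself, r was 0.31 for LSS, 0.23 for SREBF2 and 0.16 for DHCR7, -0.39 for FDFT1 and -0.78 for SQLE. The mean profile was lowest in replicate 1 of either stage and highest in pubertal replicate 2. The genes outside the set that were most like this mean over the 6 libraries, among 14074 with a mean of at least 1 FPKM, were SGPP2 (r = 0.99), CLEC11A (r = 0.98), IKZF4 (r = 0.98), RRM2 (r = 0.97) and REC8 (r = 0.97). SGPP2, a sphingosine-1-phosphate phosphatase, measured 4.45, 6.16 and 5.49 FPKM in pubertal replicates 1, 2 and 3, against 4.06, 5.48 and 5.54 FPKM in the prepubertal ones. Of the pathway genes the closest to the mean were HSD17B7, a sterol ketoreductase, with an r of 0.83 at rank 220 and FADS2 with an r of 0.81 at rank 260. These values rank likeness over 6 points and carry no test.

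The libraries were close in scale, with a median log2(FPKM + 1) between 3.80 and 3.83 over genes with a mean of at least 1 FPKM. The tissue label was checked against hypothalamic markers, of which 8 of 12 were matched. PMCH, the melanin-concentrating hormone gene, ranged from 673 to 2173 FPKM and GNRH1 from 5.34 to 16.0 FPKM, while AVP was listed at 0 in all libraries, which was not read as absence. Of the 7 hypothalamic markers tested, 3 had an unadjusted p-value under 0.05, against 5.16% of all genes, and 0 an adjusted one (limma). GNRH1 and POMC were higher in pubertal goats, with log2 fold changes of 0.85 and 1.83. AGRP, an arcuate peptide gene, was lower, with a log2 fold change of -2.15 and means of 18.9 against 98.5 FPKM. GNRH1 did not overlap between the stages, while POMC and AGRP did. POMC was at 34.4 FPKM in pubertal and 47.4 FPKM in prepubertal replicate 1. AGRP was at 28.3 FPKM in pubertal and 22.3 FPKM in prepubertal replicate 3. The summed level of the 11 myelinating oligodendrocyte markers other than MBP was between 1536 and 2127 FPKM in pubertal and between 1459 and 2171 FPKM in prepubertal goats, with MBP listed at 0 in prepubertal replicate 1. The 10 astrocyte markers summed to between 7324 and 7704 FPKM in pubertal and between 7322 and 7853 FPKM in prepubertal goats. Both sums overlapped between the stages. Of the myelinating markers tested, 8 of 11 had a positive log2 fold change and 0 had an unadjusted p-value under 0.05, with MBP averaging 2079 ± 1452 FPKM in pubertal against 433 ± 437 FPKM in prepubertal goats (SD, n = 3) and MOBP at a log2 fold change of -0.12. Of 10 astrocyte markers 5 were positive, and the most abundant, GFAP and S100B, had log2 fold changes of 0.07 and 0.02. ALDH1L1 was higher without overlap (log2 fold change 0.62, limma unadjusted p = 0.0103, adjusted p = 0.795) and was the 1 astrocyte call, while ALDOC was lower without overlap (log2 fold change -0.21, limma unadjusted p = 0.113).

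Markers of other cell types also differed between the libraries. The 6 leptomeningeal markers summed to 148, 122 and 312 FPKM in pubertal and to 50.9, 91.5 and 95.3 FPKM in prepubertal replicates 1, 2 and 3. Of these markers, 4 of 6 were higher at an unadjusted p-value under 0.05, against 3.51% of all genes. DCN and COL1A2, matrix genes and the highest of the list, had log2 fold changes of 1.24 and 1.41. The 7 endothelial and mural markers summed to between 117 and 219 FPKM in pubertal and between 88.3 and 111 FPKM in prepubertal goats. All 7 had a positive log2 fold change, 2 of them at an unadjusted p-value under 0.05. The leptomeningeal and the endothelial and mural sums were both highest in pubertal replicate 3. RGS5, a pericyte gene, reached 93.2 FPKM and ACTA2, a smooth muscle actin, 70.7 FPKM in that library. The 7 anterior pituitary markers summed to between 87.2 and 483 FPKM in pubertal and between 28.5 and 51.2 FPKM in prepubertal goats. Log2 fold changes were positive for 6 of 7, with 3 at an unadjusted p-value under 0.05. POMC, which hypothalamic neurons also express, made up 429 FPKM of the highest sum, in pubertal replicate 3, and without it the sums were 52.8, 66.0 and 54.0 FPKM in pubertal and 3.75, 20.9 and 4.19 FPKM in prepubertal replicates 1, 2 and 3. Choroid plexus markers summed to 331 FPKM in pubertal replicate 3, nearly all from TTR, and to at most 58.7 FPKM elsewhere, with 0 of 6 past an unadjusted p-value of 0.05. The 9 microglial markers summed to between 369.7 and 456 FPKM against 347 to 399.8 FPKM. Log2 fold changes were positive for 6 of 9, with 3 at an unadjusted p-value under 0.05. The 11 neuronal markers summed to between 2005 and 2377 FPKM against 2304 to 2606 FPKM. Among these, 0 of 11 were called but all 11 log2 fold changes were negative (median -0.14). The 7 precursor markers summed to between 107 and 118 FPKM against 97.6 to 116 FPKM, with 0 of 7 called. Pubertal replicate 3 had the highest SREBF2 and DHCR7 values, 31.0 and 24.7 FPKM, and the highest leptomeningeal and endothelial sums. Pubertal replicate 1 had SREBF2 at 22.1 FPKM and leptomeningeal and endothelial sums above every prepubertal goat. The part of these cells in the SREBF2 and DHCR7 values was not tested.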

How the data were processed

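Hypothalamus of 3 pubertal and 3 prepubertal goats was sequenced, and libraries were named by stage and replicate from the sample labels. Alignment was by TopHat, assembly by Scripture as well as Cufflinks, and the authors deposited Cuffdiff FPKM values for every transcript in every library. Cufflinks 2.1.1 and Cuffdiff 2.1.1 are named in the submitters' processing notes, and the genome build is not given in the sources used here. The deposited comparison table supplied gene identifiers and transcript lengths, while its group FPKM, fold changes, p-values and q-values were not used. The lncRNA tables were not used, and 0 per-sample columns were left out. As FPKM gives no counts, depth is unknown and no counting interval was computed.

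Symbols came from a RefSeq table of the ARS1.2 assembly, matching 19083 of 20225 genes (94.4%), and its coordinates were not used. FPKM was summed by gene. The stage comparison used two-sided moderated statistics with an intensity trend from limma 3.58.1 (R 4.3.3), fitted to log2(FPKM + 1) for genes with a mean of at least 0.1 FPKM, with Benjamini-Hochberg adjustment over all genes and a threshold of 0.05, and was tested on simulated data. Fold changes on this scale understate those of low genes. Correlations used exact permutation over all 720 pairings. The rest was computed in Python 3.11.15 with scipy 1.17.1 and pandas 2.3.3. As IDI1 was not matched, 21 pairs and 6 neighbouring levels were compared.

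The members, gene lists and tests were chosen with earlier results of these data known. Genes named were the 7 members, FDPS, the most abundant gene of each pathway list, list genes with an unadjusted p-value under 0.05 or without overlap, the 5 genes most like the members, and abundant markers. MVK, SC5D, SCAP, INSIG1, SREBF1, HSD17B7, AVP, GNRH1, AGRP, ALDH1L1, ALDOC and TTR were chosen after their values were seen. So were genes named for a single alternative and the ranks of genes by their r with a single member. Some genes that the rule names are not reported here. Alternatives were another pseudocount, other minimum levels, quantile normalization, median centring, no trend, the replicate block, 3 other ways to sum transcripts, and leaving out each library.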

Additional observations from a re-analysis of the deposited data

How the results depend on the processing

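Across 16 alternatives each, none of the 112 values of the 7 genes passed a limma adjusted p-value of 0.05, while 2 passed an unadjusted p-value of 0.05, those of SREBF2 and DHCR7 without pubertal replicate 1. DHCR7 (0.09 to 0.31 with a library left out), SREBF2 (0.15 to 0.39) and FDFT1 (-0.08 to -0.04) kept their sign throughout. The others changed sign with single libraries, HMGCS1 between -0.0672 and 0.0172, MVD between -0.145 and 0.0172, SQLE between -0.0926 and 0.0056 and LSS between -0.000401 and 0.168. Quantile normalization turned HMGCS1 (0.0564), SQLE (0.0172), both HMGCS1 transcripts (XM_005694739.2 at 0.0813, XM_005694740.2 at 0.0259) and the r of SQLE with DHCR7 (0.01995), and moved the median r of the 21 pairs to 0.52. With a library left out, the transcripts ran from -0.0754 to 0.0617 and from -0.0916 to 0.0316.

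Over all genes, leaving out a library gave 0 to 4 genes at an adjusted and 502 to 2223 at an unadjusted p-value under 0.05, lowest without prepubertal replicate 1 and highest without pubertal replicate 1, and 2470 to 5399 genes without overlap, where fewer libraries overlap less. In the lists it gave 0 to 2 synthesis enzymes (MSMO1 and SC5D lower without pubertal replicate 1, MVK lower without pubertal replicate 2), 0 to 2 SREBP regulators (SREBF1 higher and RNF139 lower without pubertal replicate 1), 0 to 2 export genes (LRP1 higher and ABCG4 lower without pubertal replicate 2, CH25H alone without prepubertal replicate 2), 0 to 3 isoprenoid genes (NUS1, RABGGTB and FNTA lower without pubertal replicate 1) and 0 to 2 fatty acid genes (ELOVL5 and FADS1 lower without pubertal replicate 3).

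The labels do not say whether replicate numbers pair the goats. The deviations of same-numbered libraries from their stage means had r of -0.03, -0.11 and 0.09. With 3 libraries per stage, whose deviations sum to 0, these values cannot decide whether a pairing or shared batch existed. With the replicate block, 1 gene (LOC106503629) passed at an adjusted p-value and 847 at an unadjusted p-value of 0.05, and no call of the 7 genes changed. The MVD and SREBF2 levels kept their order, with a log2 ratio of 0.19 to 0.32 with a library left out. With only the highest transcript summed, HMGCS1 exceeded FDFT1 by 0.50 on the log2 scale in place of 1.26. The cause of the changes with single libraries was not tested.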
